A study of Drosophila melanogaster with 4 samples.

Results

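The short 3' untranslated regions (3' UTRs) of the X chromosome were examined as a group. They are the intervals of the deposited 3' UTR table that lie on the X and span under 500 nt from start to end, 344 of 4299 intervals, from 281 of 2667 genes. Overlapping intervals of 1 strand with an equal mean hold the same reads, and merging them left 303 observations with widths of 48 to 498 nt (median 296 nt). The rule used position and width and no measured signal. It was set with the excess of X-linked genes among 3' UTR calls already known, so that excess is not tested again here. Coordinates are those of the dm6 build.

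A 3' UTR follows the stop codon of an mRNA and carries sites at which RNA-binding proteins act on its stability, localisation and translation. Sex-lethal (Sxl), the switch protein of female development in Drosophila, binds stretches rich in uridine and represses translation of msl-2 through its UTRs, which keeps X dosage compensation off in females. Sister of Sex-lethal (Ssx) is its paralog. In iCLIP (individual-nucleotide resolution crosslinking and immunoprecipitation), RNA crosslinked to a protein by UV light is recovered with an antibody and sequenced, so the reads mark RNA held close to the protein.

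The experiment used SL2, a male embryonic Drosophila cell line, with 2 libraries from a polyclonal rabbit antibody against Ssx and 2 from control rabbit IgG. The labels name no genetic change or treatment. They leave unsaid whether libraries of 1 group came from different cultures, and the p-values may then reflect technical spread alone. Of 10 blood cell markers, the lineage ascribed to SL2, 7 were listed in at least 1 region table, and Hml, NimC1 and He were not. Of 5 genes of male dosage compensation, 4 were listed, and roX1 was not. A positive log2 fold change was read as higher in the Ssx immunoprecipitate (IP), a direction that is likely, given the name under which the tables were deposited, but is not written in them. With the opposite direction, every "higher" below would be "lower".

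The deposited means are sums of whole reads divided by 4 size factors, and the reads of each interval could be recovered from them. The recovered libraries carry no names and were not assigned to samples or groups. They are called A to D here by falling size factor, 2.09, 1.66, 0.760 and 0.473. In 19 of the 20 observations with an adjusted p, A and B both lay above C and D after scaling, and these 19 had a positive fold change. That pattern therefore restates the sign of the fold change and is no separate evidence for it. Without overlaps, the short X-linked 3' UTRs held 4916 reads, namely 1837 in A, 2818 in B, 207 in C and 54 in D. After scaling, A and B held 87.0% of their signal, beside 82.7% in the X-linked 3' UTRs of 500 nt or more and 48.4% in the autosomal ones under 500 nt. Coverage was thin, with a median of 5 reads per observation over the 4 libraries together, and 209 of the 303 observations held under 10 reads.

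Of the 303 observations, 20 had an adjusted p in the authors' deposited table, and 15 of these were called higher and 1 lower at an adjusted p under 0.05 (DESeq2). Over the whole 3' UTR table, 32.3% of 257 tested observations were called higher and 0.778% lower. Of the X-linked observations of 500 nt or more, 53 of 109 tested were called higher and 0 lower. Of the autosomal ones under 500 nt, 3 of 15 tested were called higher and 1 lower. The authors listed an adjusted p only for intervals with a high mean over all libraries, here at least 7.54 normalized reads, so a sparse interval reached the test through the libraries in which it was abundant. The 20 tested observations are therefore not a sample of the 303, and their count is given as a description. The 15 higher observations belonged to 15 genes. With the p-values adjusted over all listed 3' UTR intervals, chosen as a stricter alternative, 6 of the 15 were kept, those of CG44325, ade5, SkpA, RpL17, sqh and CG1572.

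**Figure D1:**
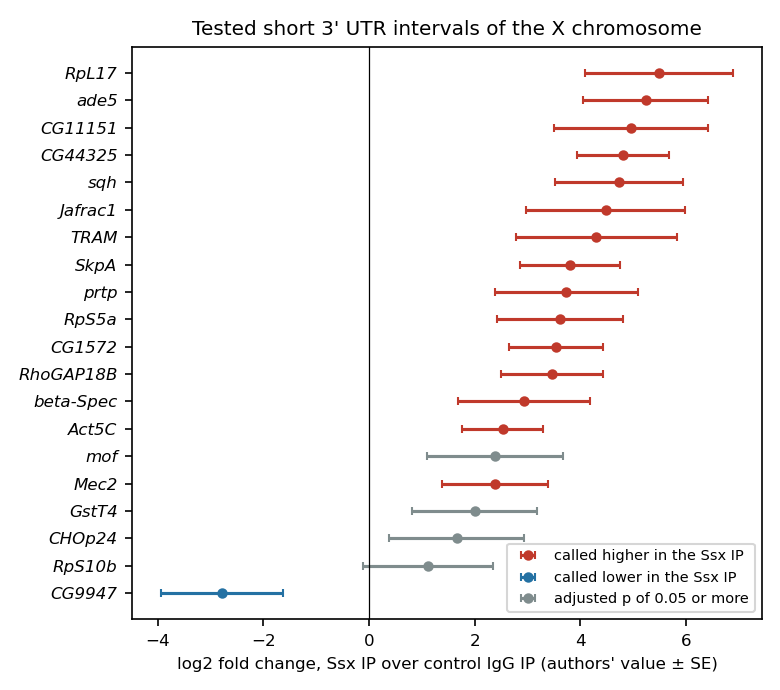
Log2 fold change of the 20 tested short X-linked 3' UTR observations, Ssx IP over control IgG IP, as deposited by the authors. Points are the authors' estimates and bars their standard errors. The 15 observations called higher lie between 2.38 and 5.49, and CG9947 alone lies below 0, at -2.78.

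Among genes of protein synthesis, RpL17, a protein of the large ribosomal subunit, had the largest fold change of all members. Its 3' UTR (X, 6741537 to 6741776, minus strand) held 54 reads in library A, 70 in B and 0 in C and D. By the authors' deposited table, its fold change was 5.49 ± 1.40 on the log2 scale (authors' SE, DESeq2 adjusted p = 0.00129), and the values that follow are on the same scale. RpS5a, of the small subunit, held 46, 56, 2 and 0 reads in A to D within 114 nt (X, 17143588 to 17143702, minus strand). In the authors' deposited table it had 3.62 ± 1.19 (DESeq2 adjusted p = 0.0122). RpS10b, also of the small subunit, held 15, 25, 5 and 1 reads and was not called, the authors' deposited table giving 1.12 ± 1.23 (DESeq2 adjusted p = 0.565). For RpL17 and RpS5a every scaled value of A and B lay above every value of C and D, and for RpS10b the gap between A and C was small, with 7.18 against 6.58 normalized reads.

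The list of ribosomal protein genes had 14 genes with a short X-linked 3' UTR, of which 3 were tested and 2 called higher. Their log2 fold changes, taken at the deepest interval of each gene, had a median of 0.34, and 8 of the 14 were positive. RpL35 (31 reads) and RpS28b (21 reads) had 2.50 ± 1.54 and 2.77 ± 1.70 in the authors' deposited table, without an adjusted p. The most negative member of the list was RpS14b, at -2.67 ± 1.78 in the authors' deposited table, from 5 reads that all lay in library C. The other 11 genes of the list had no adjusted p, and RpL35, RpS28b and RpS14b were named after their values were seen.

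The cytoskeleton list, which also holds the endocytic genes Chc and shi, had 7 members, and 3 of 3 tested were called higher. Among all tested members this was 15 of 20, so the count does not set the list apart. The 3' UTR of sqh, which encodes the regulatory light chain of non-muscle myosin II, spans X, 6223061 to 6223406, on the minus strand. It held 56, 99, 0 and 1 reads in A to D, and the authors' deposited table gives 4.74 ± 1.21 (DESeq2 adjusted p = 0.00129). The short 3' UTR of Act5C, a cytoplasmic actin (X, 5903829 to 5904173, plus strand), held 112, 137, 11 and 3 reads, the second highest number among members. The authors' deposited table has it at 2.53 ± 0.77 (DESeq2 adjusted p = 0.00768). For beta-Spec, the beta subunit of spectrin, the 45, 25, 1 and 1 reads gave 2.94 ± 1.24 by the authors' deposited table, a call at the threshold (DESeq2 adjusted p = 0.0491). RefSeq places another gene, CG12990, at the beta-Spec interval. Outside the list, RhoGAP18B, a GTPase-activating protein, held 70, 96, 2 and 2 reads in 498 nt. It stood at 3.46 ± 0.97 by the authors' deposited table (DESeq2 adjusted p = 0.00352). Another short 3' UTR of RhoGAP18B (111 nt) held 2 reads, with 0.29. A 3' UTR of 1471 nt that contains the latter held 17 reads, with 2.44 ± 1.73 and no adjusted p. In the called intervals of all 4 genes the scaled values of A and B lay above those of C and D.

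Among metabolic and redox enzymes, ade5 (current symbol Paics), which acts in the synthesis of purines, held 103, 108, 1 and 0 reads in A to D (X, 12757760 to 12758051, minus strand). The authors' deposited table lists it at 5.24 ± 1.18 (DESeq2 adjusted p = 0.000426). Jafrac1, now named Prx2, a peroxiredoxin that removes hydrogen peroxide, held 17, 44, 0 and 0 reads and reached 4.48 ± 1.51 by the authors' deposited table (DESeq2 adjusted p = 0.0135). GstT4, a glutathione S-transferase, held the same total of 61 reads, spread as 29, 28, 3 and 1. It was not called, with 2.00 ± 1.19 by the authors' deposited table (DESeq2 adjusted p = 0.182). With equal totals, GstT4 had 4 reads in C and D together and Jafrac1 had 0. The list of energy and metabolism genes had 5 members, of which ade5 was the only one tested, and the protein folding and redox list had 2, of which Jafrac1 was tested.

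Genes of the secretory pathway and of protein turnover followed. TRAM, a membrane protein of the endoplasmic reticulum that acts at the translocon, held 24, 31, 0 and 0 reads. By the authors' deposited table its value was 4.30 ± 1.52 (DESeq2 adjusted p = 0.0177). The interval lies inside an intron interval of CG32815 on the same strand, so either gene could be their source. For prtp (pretaporter), a thioredoxin-like protein of the endoplasmic reticulum, 26, 45, 1 and 0 reads gave 3.74 ± 1.36 by the authors' deposited table (DESeq2 adjusted p = 0.0221). CHOp24, a p24 family cargo protein of vesicles, held 14, 35, 5 and 0 reads and was not called, with 1.66 ± 1.28 by the authors' deposited table (DESeq2 adjusted p = 0.334). RefSeq places a non-coding gene, lncRNA:CR32773, at the same position. SkpA, the adaptor of SCF ubiquitin ligases (X, 657599 to 657899, plus strand), held 80, 154, 5 and 0 reads. The authors' deposited table puts it at 3.81 ± 0.95 (DESeq2 adjusted p = 0.00129), and it was the only tested gene among 3 members of the ubiquitin and proteasome list.

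The deepest member was CG44325, a gene without an assigned role here, with 125, 363, 4 and 1 reads in 241 nt (X, 9071342 to 9071583, minus strand). The authors' deposited table gives it 4.80 ± 0.87 and the smallest adjusted p of the members (DESeq2 adjusted p = 7.27e-06). Its interval overlaps a 5' UTR interval of CG10970 on the same strand, so part of the reads could stem from that gene. CG1572 (69, 177, 3 and 3 reads) and CG11151 (29, 56, 0 and 0 reads) had 3.53 ± 0.89 (DESeq2 adjusted p = 0.00129) and 4.96 ± 1.45 (DESeq2 adjusted p = 0.00531) by the authors' deposited table. RefSeq also places Grip91 at the CG11151 interval. Mec2, a stomatin family membrane protein, held 58, 70, 8 and 0 reads in 104 nt and was called at the threshold, with 2.38 ± 1.004 by the authors' deposited table (DESeq2 adjusted p = 0.0491). Library B held more reads than A in 17 of the 20 tested observations, and beta-Spec was among the exceptions.

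**Figure D2:**
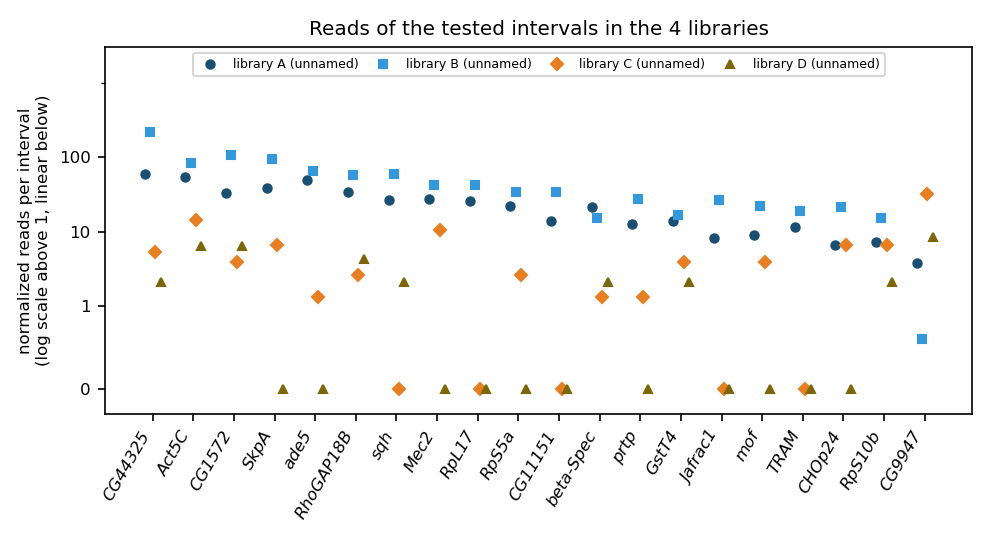
Normalized reads per interval (read count divided by the size factor) in the 4 unnamed libraries for the 20 tested observations, ordered by total reads, on a scale that is logarithmic above 1. Libraries A and B lie above C and D in 19 of the 20 observations, and in CG9947 C and D lie above A and B.

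The interval called lower was that of CG9947, now named Cdc50, a subunit of lipid flippases (X, 16439148 to 16439240, minus strand). Its 92 nt held 8 reads in A, 1 in B, 24 in C and 4 in D. Scaled to the size factors these were 3.83, 0.60, 31.6 and 8.46 normalized reads, so the single library C carried most of the value. The authors' deposited table lists -2.78 ± 1.16 (DESeq2 adjusted p = 0.0463). Adjusting over the 3' UTR intervals that carry an adjusted p moved this to 0.0519. A longer 3' UTR of CG9947 that contains the interval (1865 nt, 44 reads) was not called. Its value was -2.31 ± 1.06 by the authors' deposited table (DESeq2 adjusted p = 0.0683). Of 57 members with a negative fold change, 3 held 10 or more reads, and the other two were RpL7A and RpS15Aa, named after their values were seen.

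Dosage compensation and sex determination genes had 2 members on their list. The 3' UTR of mof, the histone acetyltransferase of the male dosage compensation complex, held 19, 37, 3 and 0 reads. Its value of 2.39 ± 1.28 by the authors' deposited table did not pass (DESeq2 adjusted p = 0.129). Sxl had 2 short intervals, which overlap an intron or a coding interval of the gene itself and lie far before its annotated end. The first, of 363 nt, held 8 reads with 0.75 ± 1.77, and the second, of 220 nt, held 2 reads with -0.56 ± 1.69 in the authors' deposited table, neither with an adjusted p. No short X-linked 3' UTR of ssx was listed, and msl-2 is not X-linked. Of the further lists, signalling genes had 4 members (arm, sgg, CkIIbeta and Ran), chromatin and transcription genes 2 (mof and Trf2), and translation factors and RNA processing genes 0, and mof was the only one of them tested.

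Many short intervals are the shorter of several 3' UTRs annotated for 1 gene, and the recovered reads then show where along the longer 3' UTR the signal lay. A short interval was nested in a longer 3' UTR of the same gene in 133 genes, and 71 of these held 10 or more reads in the longer one. In 64 of the 71 both began at the same base after the stop codon. The short interval held a median of 50% of the reads and 34.3% of the length, and in 43 of the 71 genes its share of reads was above its share of length. No listed interval held under 2 reads, so short intervals with fewer are missing here, which raises these shares of reads. Of the 303 observations, 26 shared all their reads with an overlapping interval of 500 nt or more, so they cannot be told from it. They included the higher observations of CG1572 (252 reads, longer 3' UTR of 565 nt) and beta-Spec (72 reads, longer 3' UTR of 620 nt). As a check of the recovery, none of 190 nested pairs had more reads of any library in the shorter interval. Pairs with an equal mean cannot fail this check, and their number was not counted. Exact 95% intervals for shares of reads cover counting error only.

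In a first set of genes most reads lay in the short interval, which in all of them but CG9947 begins at the stop codon. CG44325 held 493 of 495 reads (99.6%, exact 95% interval 98.5 to 99.95) in the first 26.9% of its longest 3' UTR of 899 nt. For ade5 this was 212 of 231 reads (91.8%, 87.5 to 94.98) in the first 28.7% of 1015 nt. All 252 reads of CG1572 lay in the first 58.5% of 565 nt. RpS10b had 46 of 51 reads (90.2%, 78.6 to 96.7) in the first 17.9% of 889 nt. Act5C had 263 of 405 reads (64.9%, 60.1 to 69.6) in the first 22.0% of 1570 nt, with the other 142 further downstream. CG9947, whose short interval was called lower, had 37 of 44 reads (84.1%, 69.9 to 93.4) in an inner stretch of 4.98% of a 3' UTR of 1865 nt.

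A second set showed the reverse, with most reads in the extension beyond the short interval. For mgl, the endocytic receptor megalin, 18 of 366 reads (4.92%, 2.94 to 7.66) lay in the first 25.5% of the longest 3' UTR. The shares were 5.70% of 351 reads for l(1)G0320, 7.72% of 272 for Clic, a chloride intracellular channel protein, and 13.6% of 236 for Moe (moesin), which links actin to the membrane. Ran, the GTPase of nuclear transport, had 24 of 145 reads in the first 41.4%. In these 5 genes the short interval had no adjusted p, with log2 fold changes of 0.62 to 2.16, while the longest 3' UTR had 2.01 to 3.88 in the authors' deposited table. The short intervals held 18 to 32 reads and the longest 3' UTRs 145 to 366, and fold changes followed read number among the members. The longest 3' UTR also contains the short interval, so these values are not compared in size. Sxl held 2 of 78 reads in the first 11.6% of a 3' UTR of 1898 nt. The genes of this set and of the preceding one were named after their read shares were seen.

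**Figure D3:**
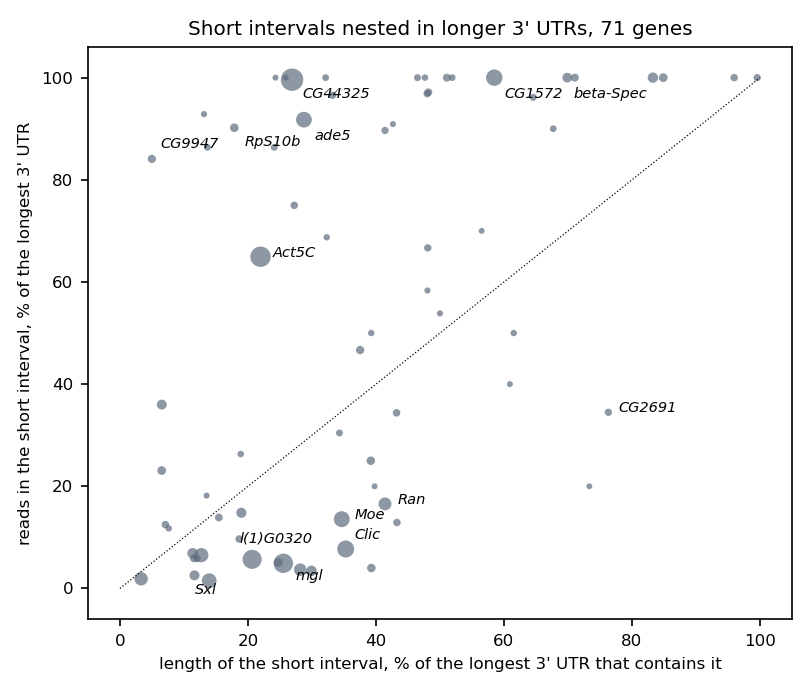
Share of reads against share of length for the shortest short interval nested in a longer 3' UTR of the same gene, for 71 genes with 10 or more reads in the longer one (4 libraries together, point area by read number, dotted line where both shares are equal). CG44325, ade5 and CG9947 lie near the top left, with most reads in a small part of the 3' UTR, and mgl, Clic, Moe and Ran near the bottom.

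The same genes were then followed through the other region tables. All 15 genes called higher were listed in coding sequence, where their deepest interval held 2 to 24 reads. Per 100 nt their short 3' UTRs held 14.99 to 204 reads and their densest coding interval 0.066 to 15.9. The 3' UTR was the denser part in 15 of 15 genes, by 5.67 times (RpS5a) to 251 times (beta-Spec), with a median of 42.8. These genes were called on the 3' UTR reads themselves, so this density is a description. Of 104 member genes listed in coding sequence, 0 were called by the authors' DESeq2 test, with 0 intervals at an unadjusted p under 0.05 and 0.0% of that table called.

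In introns, 27 member genes were tested, of which 5 were higher (Act5C, CG44325, RpL17, bif and mgl) and 1 lower (Aats-his). The background in the intron table was 3.52% of observations higher and 5.38% lower. The member counts are of genes with any called interval, which raises them against a share of single observations. By the authors' deposited table the intron of Act5C had 3.73 ± 1.12 from 179 reads (DESeq2 adjusted p = 0.0157) and that of RpL17 4.46 ± 1.40 from 100 reads (DESeq2 adjusted p = 0.0208), both away from the 3' UTR. A shorter intron interval of RpL17 (X, 6743149 to 6743949, 66 reads) was not called. Its value was 3.86 ± 1.44 by the authors' deposited table (DESeq2 adjusted p = 0.0683). The higher intron interval of CG44325 holds the reads of the 3' UTR itself. In 5' UTRs, 13 member genes were tested and 4 were higher, all encoding ribosomal proteins, against a background of 12.2% of observations, again a share of single observations and not of genes. RpL17 and RpS5a each had a 5' UTR interval called higher, with values of 4.82 ± 1.65 and 4.77 ± 1.66 by the authors' deposited table (DESeq2 adjusted p = 0.0490 for each). Their shorter 5' UTR intervals were not called, with 9 reads and no adjusted p for the longer of those of RpL17 and an adjusted p of 0.123 (DESeq2, the authors' deposited table) for RpS5a. Both called 5' UTR intervals overlap an intron interval of the same gene, which was called for RpL17 and not for RpS5a (DESeq2 adjusted p = 0.242), so the same reads can enter both values. Over the 91 member genes listed in 5' UTRs the deepest intervals had a median of 1.23. The other two, RpS6 and RpS19a, held 3 and 10 reads in their short 3' UTRs, with log2 fold changes of 0.45 ± 1.69 and 0.75 ± 1.74 in the authors' deposited table. The tables were scaled separately and share the 4 libraries, so these values stand side by side and are not compared in size.

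The remaining 283 observations had no adjusted p. At an unadjusted p under 0.05, 25 of all 303 observations were higher and 1 was lower in the authors' deposited table, against 4.51% and 0.168% of the 3566 observations of the 3' UTR table. The X-linked observations of 500 nt or more had 99 higher and 1 lower of 643, a larger share higher than among the members. The autosomal ones under 500 nt had 9 higher and 1 lower of 1148. Of the 25, 10 observations of 9 genes had no adjusted p, and none of them held a read in library C or D. Those named here were chosen after their values were seen. CycD, a cyclin of G1 phase, had 41 reads and 3.88 ± 1.58, and REG, a proteasome activator, had 39 reads and 3.67 ± 1.59 in the authors' deposited table (unadjusted DESeq2 p = 0.0138 and 0.0211). Further ones were CG14438 (now named sov, 2 observations), Mct1, Efr, CG2691, stas and CG1622, with log2 fold changes of 3.29 to 3.58.

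**Figure D4:**
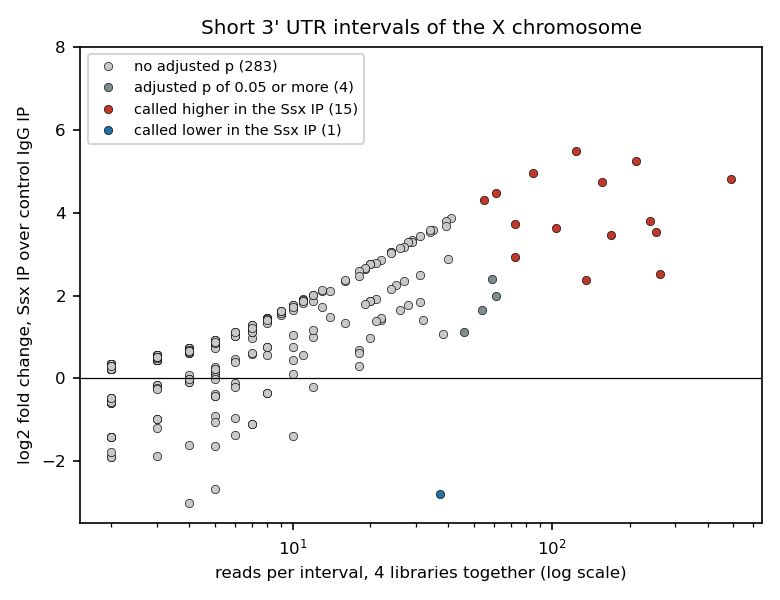
Log2 fold change, Ssx IP over control IgG IP, against reads per interval (4 libraries together, log scale) for the 303 observations, coloured by the authors' call. Fold changes rise with read number, from medians of 0.29 at 2 to 4 reads to 3.68 at 50 or more, and the 15 higher observations hold 55 to 493 reads. Both axes come from the same reads, so this rise is partly built in.

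Over all 303 observations the median log2 fold change was 0.57 and 246 (81.2%) were positive. The 643 X-linked observations of 500 nt or more had a higher median of 0.73 and a similar share of 80.6%. They held a median of 11 reads, beside 5 among the members. Over the 3566 observations of the whole 3' UTR table the values were 0.23 and 59.9%. Fold changes followed the read number among the members (Pearson's r = 0.78 with log2 reads, Spearman's rank correlation 0.79, n = 303) and were weakly related to width (rank correlation 0.19). All points share the same 4 libraries, and no test was made. Read number and fold change come from the same reads, and 188 of the 303 observations held no read in C or D. The relation is therefore partly built in. The 4 tested observations with no read in C or D ran from 4.30 at 55 reads (TRAM) to 5.49 at 124 (RpL17). The deposited value thus differed with read number even where C and D were empty. The members were set beside the other 3' UTR classes within bins of reads summed over the 4 libraries, the last bin being open-ended. These sums hold the same reads as the fold change, so the bins do not remove the effect of read number. At 10 to 19 reads, 36 of 38 members were positive with a median of 1.77. The X-linked observations of 500 nt or more had 91 of 112 positive with a median of 1.16, and the autosomal ones under 500 nt 52 of 116 with a median of -0.26. At 20 to 49 reads the medians were 2.76 for 38 members, 1.77 for 136 X-linked observations of 500 nt or more and 0.86 for 40 autosomal ones under 500 nt. At 50 or more reads all 18 short and all 104 long X-linked observations were positive, with medians of 3.68 and 2.83, and 9 of 10 autosomal ones under 500 nt were positive with a median of 1.71. Neighbouring and nested intervals are not independent, and these differences were not tested.

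**Figure D5:**
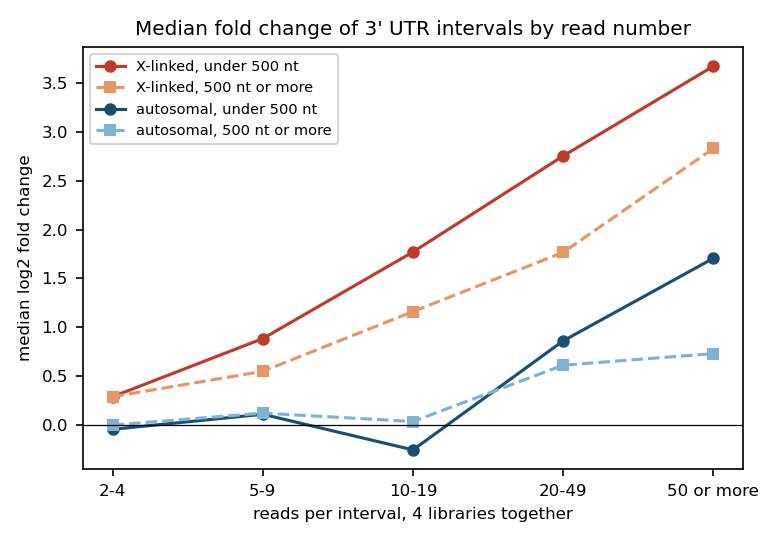
Median log2 fold change of 3' UTR observations in 5 bins of read number (4 libraries together), for X-linked and autosomal intervals under 500 nt and of 500 nt or more. The short X-linked intervals run from 0.29 at 2 to 4 reads to 3.68 at 50 or more reads, and the short autosomal ones from -0.05 to 1.71.

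By width, the 17 members under 100 nt included 1 tested observation, CG9947, and the 66 of 100 to 199 nt included 3, of which 2 (RpS5a and Mec2) were higher. Tested numbers were 6 with 5 higher at 200 to 299 nt, 6 with 5 higher at 300 to 399 nt and 4 with 3 higher from 400 nt on. Just inside the limit of 500 nt lay RhoGAP18B, described above, and mei-218 (498 nt, 5 reads, log2 fold change 0.73 ± 1.70 in the authors' deposited table). Just outside it lay CG1440 (503 nt) and CG4119 (505 nt), each with 2 reads and 0.34 ± 1.69 in the authors' deposited table.

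Members were spread over the whole chromosome, from 244061 to 22583960, and the 15 higher ones from 657599 to 19190193. Of the 303, 143 lay on the plus and 160 on the minus strand, and of the 15, 8 and 7. By RefSeq, 185 of 298 observations of matched genes (62.1%) ended within 5 nt of the annotated gene end, as did 10 of the 15 higher ones, so most are the last 3' UTR of their gene. Another gene is annotated at 76 of the 303 observations, on a strand that the reference table does not give.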

How the data were processed

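The authors deposited 1 table per transcript region with statistics for 2 Ssx IP against 2 control IgG libraries. Per the submitters' processing notes, cutadapt 1.6, Bowtie 0.12.7, DESeq2 1.14.1 and DESeq were used with the builds BDGP6 and dm6, while for read counting, duplicate removal and strand the methods are not stated in the sources used. Per the file headers, the mean is the authors' signal, a mean of normalized reads. The authors deposited fold changes with standard errors on the log2 scale. The Wald statistic is a score deposited by the authors. The p-value and adjusted p-value are those of the authors' deposited tables, and no differential test was rerun.

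Whole reads were recovered from the means within a relative tolerance of 1e-14, uniquely for 100% of 3' UTR intervals, and the method recovered 100% of simulated 3' UTR intervals. Means of 100 or more in introns were not solved. RefSeq Release 6 matched 277 of 281 genes, 221 of them by current symbol. Computation used Python 3.11.15, pandas 2.3.3 and scipy 1.17.1. The analysis plan had allowed for counts per library, which the files do not give by name, and for a search for runs of uridine, which was not run.

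The members, gene lists and alternatives were chosen with earlier results of these data known. Genes named in the text are all those called, the tested genes not called, the genes at the width limit and tested members of the lists, and further genes are marked as named after their values were seen.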

Additional observations from a re-analysis of the deposited data

How the results depend on the processing

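The number of observations called higher, 15 with the deposited adjusted p, was 13 when the adjustment covered the 3' UTR intervals listed with an adjusted p, 6 over all listed 3' UTR intervals and 6 over the 4 region tables together. It was 9 at a threshold of 0.01, 7 for intervals under 300 nt and 40 for intervals under 1000 nt, the last 2 because fewer or more intervals enter. It stayed between 13 and 16 at a threshold of 0.1, with every interval counted, with genes as the unit and with a mean of at least 10. The calls of Mec2 and beta-Spec were lost under all 3 other adjustments, at adjusted p-values of 0.0542 to 0.947, and those of RhoGAP18B, CG11151, Act5C, RpS5a, Jafrac1, TRAM and prtp under the 2 wider ones, at 0.0627 to 0.553. The single lower call became 0 under each of the 3 other adjustments and at 0.01, and CG9947 had adjusted p-values of 0.0519 to 0.905. The median log2 fold change of tested observations, 3.58, ranged from 3.40 to 4.05 over the other widths, every interval counted and a mean of at least 10, and was 0.57 over all listed observations, most of which hold few reads.

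No paired analysis was possible because the deposited tables hold no values of named libraries, and for the same reason no library was left out. The share of intervals with a run of uridine was not run, since no sequence was at hand. At a median of 5 reads per observation, a missing call does not show that a 3' UTR was free of Ssx.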

Other observations

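In some nested 3' UTRs the reads were concentrated in a stretch that does not begin at the stop codon. CG2691 held 10 of 29 reads in the first 218 nt and the other 19 in the last 68 nt of its 3' UTR. For CG1622, 28 of 29 reads lay in the last 33.2% of a 3' UTR of 1014 nt, and for mud, the spindle orientation protein Mushroom body defect, 13 of 14 lay in the last 13.1% of 1606 nt. In CG34449, now named Zdhhc8, an inner interval of 246 nt, 6.54% of the length, held 27 of 75 reads, and the other 48 lay elsewhere in the 3' UTR. RefSeq has another gene at the intervals of CG1622 and mud. These genes were chosen after their values were seen, and no test was made.

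By reads per 100 nt, the densest members after CG44325 (204) were Mec2 (130), RpS5a (90.4), SkpA (79.4), Act5C (76.2) and CG1572 (76.1), against medians of 1.30 to 6.12 reads per 100 nt in the 5 width classes. The most negative fold change of any member, named after its value was seen, was that of Rpt3, a proteasome ATPase, at -3.01 in the authors' deposited table, from 4 reads that all lay in library D.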
